A study of Homo sapiens with 12 samples.

Results

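Genes of collagens and the extracellular matrix were followed in IOSE80 cells, an immortalised line derived from normal human ovarian epithelium. They were chosen by family and function, with earlier results of these data known. The list held 51 gene symbols, which were matched by symbol to the loci of the expression files. Of these, 50 had a locus among the 30574 loci of each library and LOXL1 had none. Only 19 of the 50 were listed at 1 FPKM or more in 2 or more libraries and so entered the test, as part of 12182 tested loci. FPKM counts sequenced fragments per length of transcript and per size of library, so that levels of different genes can be set side by side.

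The study sequenced RNA of the cells after an exposure of 28 days. The 4 groups received 0.1% DMSO, bisphenol A (BPA) at 0.25 nM, BPA at 2500 nM, or E2 at a dose that the sources used here do not give. BPA is a monomer of polycarbonate plastics that binds oestrogen receptors weakly, E2 is the usual abbreviation of oestradiol, and DMSO is taken as the solvent control, although the labels of the other groups name no solvent. The values come from 3 libraries each for DMSO and both BPA doses and from 2 for E2, since the third E2 library was not analysed here. All libraries come from 1 cell line. The labels do not state whether replicates were grown as separate cultures. The p-values therefore only set differences between groups against the scatter of these libraries, and that scatter may be technical.

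The extracellular matrix is the protein network that cells secrete around themselves. Fibrillar collagens form the cables of the interstitial matrix, while collagen IV, laminins, nidogens and heparan sulfate proteoglycans form the basement membrane on which an epithelium such as that of the ovarian surface rests. Collagen chains are hydroxylated and folded in the endoplasmic reticulum, and after secretion lysyl oxidases join them by cross-links.

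Total FPKM lay between 206719 and 213663 per library. Mitochondrial loci took 13.6% to 14.3% in DMSO, 12.6% to 12.7% in BPA 0.25 nM, 12.9% to 13.6% in BPA 2500 nM and 12.3% to 14% in E2, so that BPA 0.25 nM lay below DMSO without overlap. E2 replicate 2 had the lowest median correlation with the other libraries (0.976 against 0.979 to 0.983). Read depth is unknown. Of 8 epithelial markers, the keratins KRT18 and KRT8 had means of 22.8 and 1.34 FPKM. EPCAM, KRT7 and KRT19 had means of 0.35, 0.19 and 0.15. CDH1, the epithelial cadherin, CLDN3 and CLDN4 reached no more than 0.02, 0.04 and 0.07. The 11 markers of ovarian surface epithelium were also mixed. ALDH1A1 had a mean of 109 and NR2F2 of 3.19, and KRT8 and KRT18 are on this list too. WT1, a transcription factor, reached no more than 0.01, and MSLN, CALB2, UPK3B, BNC1, GATA4 and LHX9 no more than 0.21. Of the fibroblast markers, DCN and LUM reached at most 0.02 and 0.05, while S100A4 had a mean of 58.6, PDGFRA of 5.23 and THY1 of 1.45. The PDGFRA locus is joined with the coding gene FIP1L1, so that its value, which also enters the sum below, cannot be assigned to PDGFRA. PTPRC of leukocytes and CDH5 of endothelium reached 0.01 each. CD68, also on the leukocyte list, had a mean of 46.0 in a locus joined with the coding genes SENP3 and EIF4A1, so that this value cannot be assigned to CD68. The summed level of the 10 fibroblast markers, of which 9 had a locus, spanned 84.8 to 108.8 FPKM in DMSO, 98.2 to 109.9 in BPA 0.25 nM, 82.9 to 94.0 in BPA 2500 nM and 78.3 to 97.4 in E2. COL3A1 is itself one of these markers. The 5 smooth muscle markers summed to 88.0 to 92.1 FPKM in DMSO, 99.9 to 102.9 in BPA 0.25 nM, 89.8 to 102.1 in BPA 2500 nM and 88.2 to 97.7 in E2, and DES and MYH11 reached at most 0.05 and 0.12.

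Of the 50 matrix genes with a locus, 19 passed the filter in IOSE80 cells, beside 12182 of all 30574 loci. These shares are alike, so that a low level was not particular to the matrix genes. A mean of at least 10 FPKM over the 11 libraries was reached by 6 of the 50 genes: COL5A2 at 80.4, PLOD1 at 45.4, LAMC1 at 34.5, LAMB2 at 30.1, COL3A1 at 28.7 and AGRN at 12.2. At the other end, 24 genes never exceeded 0.2 FPKM in any library and 15 of them never exceeded 0.05. The shares of all loci under these levels were not counted. All 40 housekeeping genes looked up had a locus, with a lowest mean of 6.70 FPKM. The whole set summed to between 282.4 and 301.1 FPKM per library.

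**Figure D1:**
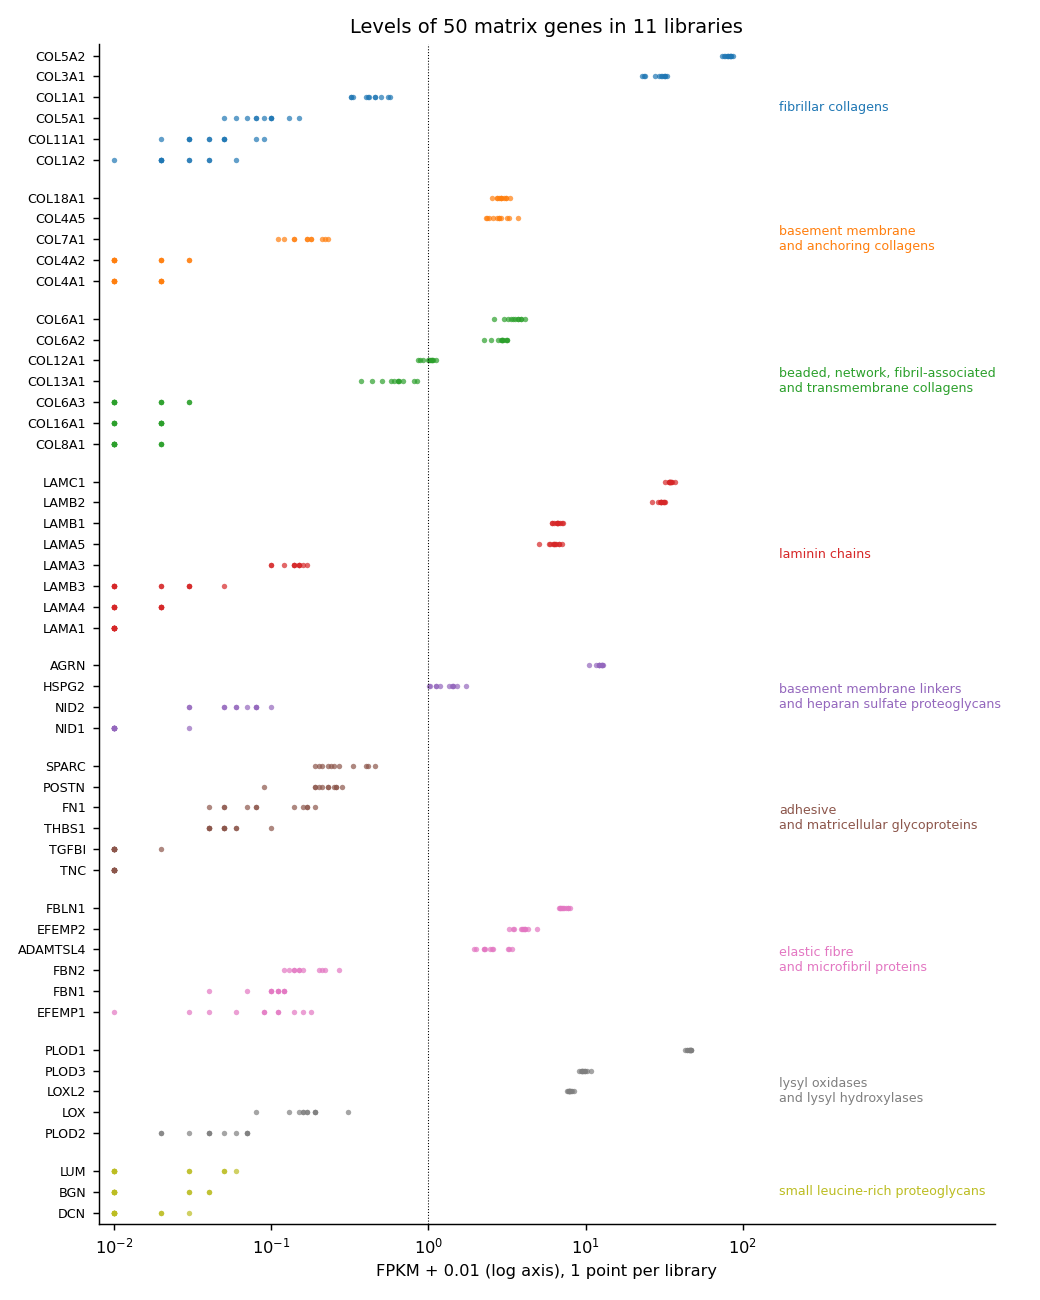
FPKM of 50 matrix genes in each of 11 libraries, grouped by role, with 0.01 added and on a log axis, 1 point per library. The dotted line marks 1 FPKM. For genes that passed the filter, the points of a gene lie close together compared with the range over all genes. Points of genes near 0 spread more on this axis and overlap between genes, and 31 genes stay under 1 FPKM in every library.

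Chains that assemble into 1 protein were listed at unlike levels. Type I collagen is built from the COL1A1 and COL1A2 chains, yet COL1A1 reached at most 0.56 FPKM and COL1A2 at most 0.05. The type V chain COL5A1 reached 0.14 beside COL5A2 at a mean of 80.4. The type XI chain COL11A1 reached 0.08. COL3A1, whose product is a trimer of a single kind of chain, was the only other fibrillar collagen above 1 FPKM. The basement membrane chains COL4A1 and COL4A2, which lie head to head on chromosome 13 with RefSeq starts 126 bases apart, reached 0.01 and 0.02 FPKM. In contrast, COL4A5 on chromosome X had a mean between 2.56 and 3.09 in each group. COL6A1 and COL6A2 stood at means of 3.49 and 2.87, while COL6A3, the third main chain of type VI collagen, reached 0.02.

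Of the laminin subunits, 1 alpha chain (LAMA5), 2 beta chains (LAMB1 and LAMB2) and 1 gamma chain (LAMC1) passed the filter. The other alpha chains LAMA3 and LAMA4 reached 0.16 and 0.01 FPKM, the beta chain LAMB3 reached 0.04, and LAMA1 was listed at 0 in every library. The nidogens NID1 and NID2, which tie laminin to collagen IV, reached 0.02 and 0.09. The proteoglycans AGRN and HSPG2 passed the filter.

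No adhesive or matricellular glycoprotein passed it. SPARC, a collagen-binding glycoprotein, had the highest mean of that class and was listed at 0.39, 0.40 and 0.23 FPKM in DMSO, 0.18, 0.45 and 0.26 in BPA 0.25 nM, 0.24, 0.20 and 0.22 in BPA 2500 nM, and 0.19 and 0.32 in E2. These groups overlapped. FN1, which encodes fibronectin, reached 0.18, POSTN 0.27, THBS1 0.09 and TGFBI 0.01, and TNC was listed at 0 throughout. The small leucine-rich proteoglycans BGN and DCN reached 0.03 and 0.02. LUM, the highest of these by mean, was listed at 0, 0.02 and 0.05 FPKM in DMSO, at 0 in all BPA 0.25 nM libraries, at 0, 0.02 and 0.04 in BPA 2500 nM, and at 0 and 0.04 in E2. Such values are too close to 0 for a comparison.

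The remaining genes under the filter were COL7A1 of anchoring fibrils (highest FPKM 0.22), COL8A1 (0.01), COL13A1 (0.84), COL16A1 (0.01), the fibrillins FBN1 (0.11) and FBN2 (0.26), EFEMP1 (0.17), the lysyl oxidase gene LOX (0.30) and the lysyl hydroxylase gene PLOD2 (0.06). COL12A1 lay just inside the filter, between 0.85 and 1.10 FPKM, and COL13A1 just outside, between 0.36 and 0.84. When the filter was dropped, 29 of the 31 genes under it could be fitted with limma on log2(FPKM + 1), and none of them was called in any of the 6 comparisons after Benjamini-Hochberg adjustment. The smallest adjusted p among them in the comparisons with DMSO was 0.191, for FN1 at BPA 2500 nM. At an unadjusted p under 0.05, 2 of the 29 passed in BPA 2500 nM against DMSO, 2 in E2 against DMSO and 1 in BPA 0.25 nM against DMSO, beside 5.93%, 5.45% and 4.96% of the 17977 loci under the filter. These were FN1 and COL1A2, both higher, in BPA 2500 nM, and COL1A1 and COL13A1, both lower, in E2. In BPA 0.25 nM it was FN1, also higher. FN1 was listed at 0.03, 0.06 and 0.04 FPKM in DMSO, 0.07, 0.15 and 0.13 in BPA 0.25 nM, 0.16, 0.16 and 0.18 in BPA 2500 nM, and 0.04 and 0.07 in E2. All libraries of both BPA doses lay above those of DMSO and those of E2 overlapped them, all of them levels at which a change is understated on this scale.

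Changes between groups were asked for in 3 comparisons with DMSO and 3 between treatments, each as a log2 change of FPKM + 1 with its standard error (SE) and a two-sided p from limma adjusted by Benjamini-Hochberg over 12182 loci. A locus was called at an adjusted p under 0.05. The comparisons with DMSO use the same 3 control libraries, so their values are not independent of each other. In bulk RNA, fewer cells that express a gene and less RNA of it per cell cannot be told apart.

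At 2500 nM BPA, the fibrillar collagen gene COL3A1 and the microfibril gene ADAMTSL4 fell, and none of the 19 tested members was called higher. These 2 of 19 tested members stand beside 158 of all 12182 tested loci, which is 1.3%, with 49 higher and 109 lower. Without 1 library the count over all loci lay between 32 (without BPA 2500 nM replicate 1 or 2) and 251 (without E2 replicate 2), and it was 13 in the fit to the compared groups alone. The split over all loci was 72 higher among 150 calls when libraries were rescaled by the median of ratios. Both members were also called by the moderated F test over the 3 treatments, which called 54 loci or 0.443% (adjusted p = 0.0114 for COL3A1 and 0.0411 for ADAMTSL4).

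COL3A1 encodes the chain of type III collagen, a fibrillar collagen of distensible tissues (GRCh38, chr2:188974320-189012746, plus strand). It was listed at 31.4, 30.3 and 32.1 FPKM in DMSO, 32.0, 30.4 and 33.0 in BPA 0.25 nM, 23.3, 23.0 and 23.8 in BPA 2500 nM, and 29.3 and 27.5 in E2. The BPA 2500 nM libraries lay below all others, the E2 libraries lay between them and DMSO, and the BPA 0.25 nM libraries overlapped DMSO. The mean was 23.4 ± 0.40 FPKM (SD, n = 3) against 31.3 ± 0.89 (SD, n = 3) in DMSO, so that FPKM fell by 25.3%, or by 0.40 on the log2 scale (SE 0.046, adjusted p = 0.00591). The call stood in each of 20 alternative fits, with adjusted p between 0.0036 and 0.0456. In the same libraries the summed level of 11 markers of ovarian surface epithelium was 121.4 to 127.0 FPKM, against 134.2 to 150.3 in DMSO, 133.0 to 142.9 in BPA 0.25 nM and 140.3 to 142.7 in E2. Only 4 of these 11 markers had a mean of at least 1 FPKM over all libraries. Most of the sum was ALDH1A1, an aldehyde dehydrogenase gene, which fell from 116 to 97.6 FPKM (adjusted p = 0.048). Its part in the result was not tested. The others of the 4, KRT18, NR2F2 and KRT8, did not pass the test (limma adjusted p = 0.667, 0.854 and 0.525). Of the contractile genes, TAGLN had means of 69.2 FPKM in DMSO and 79.2 in BPA 2500 nM, CNN1 5.67 and 4.29, and ACTA2 14.7 and 12.6, without overlap and without passing the test (adjusted p = 0.143, 0.0618 and 0.189), and their part was not tested either.

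The change of COL3A1 against BPA 0.25 nM was of like size, -0.43 ± 0.05 (SE, adjusted p = 0.0267), and it was 1 of 8 calls among all loci in that comparison, or 0.0657%. Leaving out 1 library raised the adjusted p over the threshold in 4 of 11 cases: 0.0691 and 0.124 without BPA 0.25 nM replicates 1 and 3, and 0.0689 and 0.106 without BPA 2500 nM replicates 1 and 3. For E2 against DMSO the log2 change was -0.14 ± 0.05 (adjusted p = 0.252), and for E2 against BPA 2500 nM it was 0.27 ± 0.05 (adjusted p = 0.311). In BPA 0.25 nM against DMSO it was 0.02, with a 95% interval from -0.08 to 0.13.

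COL5A2, the gene of a type V collagen chain that is built into the same fibrils, is the neighbour of COL3A1 on the opposite strand (GRCh38, chr2:189030271-189180543, minus strand), 17524 bases away. It was listed at 73.9, 78.7 and 80.6 FPKM in DMSO, 77.3, 75.3 and 80.7 in BPA 0.25 nM, 84.1, 82.5 and 83.4 in BPA 2500 nM, and 82.2 and 86.1 in E2. The BPA 2500 nM and E2 libraries lay above all DMSO libraries, though by little. The log2 change did not pass the threshold in either case, with 0.10 ± 0.04 (SE, adjusted p = 0.291) for BPA 2500 nM and 0.11 ± 0.05 (adjusted p = 0.32) for E2.

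The ratio of COL3A1 to COL5A2 within a library does not depend on the scaling of that library. It was 0.425, 0.385 and 0.398 in DMSO, 0.414, 0.404 and 0.409 in BPA 0.25 nM, 0.278, 0.279 and 0.285 in BPA 2500 nM, and 0.356 and 0.319 in E2. The 3 libraries of BPA 2500 nM were lowest and close together, and those of E2 lay between them and the rest. The ratio is given as a description, with no test, because the pair was chosen after the values were seen.

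**Figure D2:**
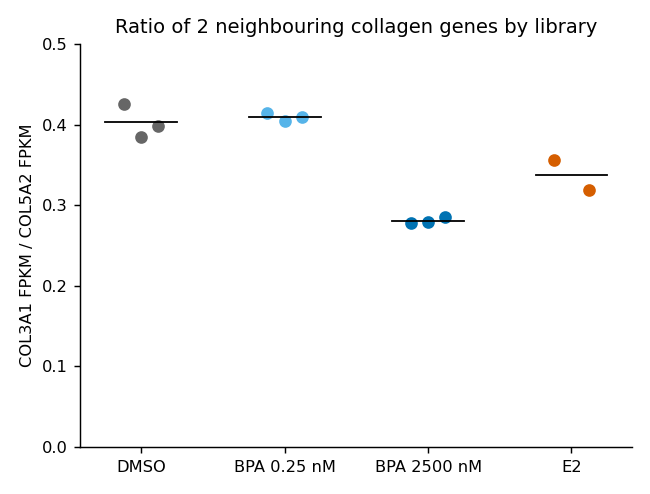
FPKM of COL3A1 divided by FPKM of COL5A2 in each library (points) with the group mean (line), on an axis from 0. The BPA 2500 nM libraries lie between 0.278 and 0.285 and the DMSO libraries between 0.385 and 0.425.

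ADAMTSL4 encodes a secreted protein that binds fibrillin microfibrils (GRCh38, chr1:150549369-150560937, plus strand). It was listed at 3.19, 3.23 and 3.38 FPKM in DMSO, 2.55, 2.52 and 2.45 in BPA 0.25 nM, 2.26, 2.26 and 2.01 in BPA 2500 nM, and 2.29 and 1.93 in E2. All 8 treated libraries lay below all 3 DMSO libraries. The mean in BPA 2500 nM was 2.18 ± 0.14 FPKM (SD, n = 3) against 3.27 ± 0.10 in DMSO, and FPKM fell by 33.4%, or by 0.43 on the log2 scale (SE 0.060, adjusted p = 0.0154). In E2 the mean was 2.11 ± 0.25 (SD, n = 2), and FPKM fell by 35.4%, or by 0.46 on the log2 scale (SE 0.067, adjusted p = 0.0316). In BPA 0.25 nM it was 2.51 ± 0.05 (n = 3), with a log2 change of -0.28 ± 0.06 that did not pass the threshold (adjusted p = 0.266).

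Both calls of ADAMTSL4 rest close to the threshold. For BPA 2500 nM the adjusted p rose to between 0.0514 and 0.0622 without DMSO replicate 1 or 2 or without any 1 of the BPA 2500 nM libraries, and for E2 it passed 0.05 in 9 of 11 fits without 1 library (0.0506 to 0.103), the exceptions being those without BPA 2500 nM replicate 3 and without E2 replicate 1. Exons of ADAMTSL4-AS1 and of AL356356.1 overlap those of ADAMTSL4 on the other strand, and the sources used here do not say whether strand was kept, so that reads of these genes cannot be told apart. ADAMTSL4-AS1 was listed at group means of 37.4 FPKM in DMSO, 34.8 in BPA 0.25 nM, 34.2 in BPA 2500 nM and 45.0 in E2. AL356356.1 was listed at group means of 0.31 FPKM in DMSO, 0.15 in each BPA dose and 0.05 in E2. The part of either gene in the result was not tested.

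**Figure D3:**
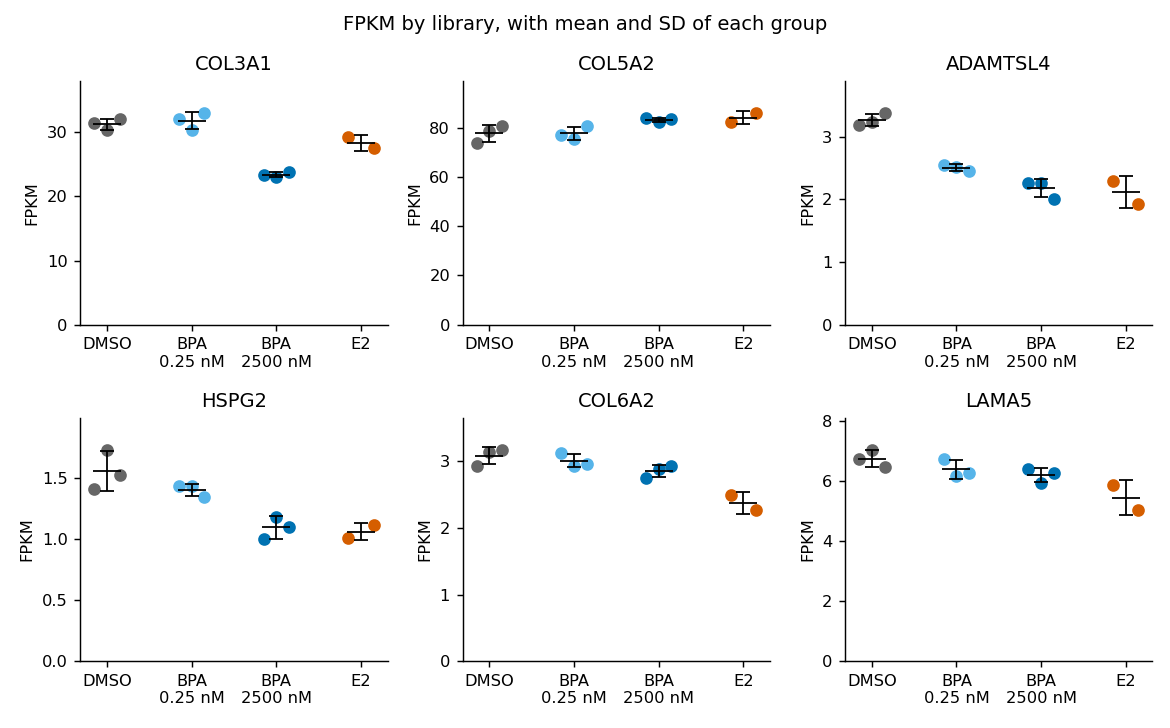
FPKM of 6 matrix genes in each library (points), with the mean and SD of each group (3 libraries for DMSO and each BPA dose, 2 for E2), each axis starting at 0. COL3A1 is low in BPA 2500 nM, ADAMTSL4 in all 3 treatments, HSPG2 in BPA 2500 nM and E2, and COL6A2 and LAMA5 in E2. Of these, the drop of COL3A1 in BPA 2500 nM and those of ADAMTSL4 in BPA 2500 nM and E2 passed the test.

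The bases just before the start of 3 genes are shown because these are the genes with a RefSeq promoter entry that lead the lower side: ADAMTSL4 (called in both comparisons), HSPG2 (among the smallest p in BPA 2500 nM and E2) and COL6A2 (the second smallest p in E2). Each run is 150 bases of GRCh38.p14, written 5′ to 3′ on the strand of the gene, at chr1:150549219-150549368 (plus), chr1:21937311-21937460 (minus) and chr21:46097947-46098096 (plus). Capitals mark 3 short motifs on either strand, with overlapping matches joined. The first motif is GGGCGG, the core of the promoter element known as the GC box. The second is TATAAA, the usual form of the element that positions transcription. The third is CCAAT.
ADAMTSL4: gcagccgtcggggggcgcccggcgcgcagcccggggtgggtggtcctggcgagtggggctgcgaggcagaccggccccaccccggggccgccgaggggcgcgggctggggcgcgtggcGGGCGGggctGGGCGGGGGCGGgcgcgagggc
HSPG2: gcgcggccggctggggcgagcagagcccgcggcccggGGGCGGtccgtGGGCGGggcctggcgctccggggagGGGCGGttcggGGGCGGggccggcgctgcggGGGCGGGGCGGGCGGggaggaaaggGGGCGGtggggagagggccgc
COL6A2: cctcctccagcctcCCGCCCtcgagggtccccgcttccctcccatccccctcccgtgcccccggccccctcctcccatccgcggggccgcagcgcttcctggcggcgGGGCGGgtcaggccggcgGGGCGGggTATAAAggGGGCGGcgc

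The stretch of ADAMTSL4 and that of HSPG2 were 87.3% G and C, and that of COL6A2 was 80.0%. COL6A2 alone of the 3 held TATAAA, and its first capitals are a GGGCGG on the other strand. Over the 250 bases before the start, GGGCGG was found in 13 of the 14 tested members with a RefSeq entry, in 18 of the 25 members under the filter, in 69.0% of 8974 tested genes and in 42.3% of all 27305 promoters. TATAAA was found in 1 of the 14, against 4.67% of tested genes and 11.1% of promoters, and CCAAT in 1 of the 14, against 35.6% and 33.0%. A match is a description of the letters and no evidence of binding. The members without an entry were COL1A1, COL1A2, COL3A1, COL5A2, COL6A1, COL8A1, LAMA1, AGRN, EFEMP1, LOXL2, DCN and LUM.

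Neither of the other tested elastic fibre genes, FBLN1 and EFEMP2, passed the test in any comparison with DMSO. FBLN1, the gene of a glycoprotein of elastic fibres and basement membranes, was listed at 7.90, 7.28 and 7.66 FPKM in DMSO, 6.77, 7.69 and 7.52 in BPA 0.25 nM, 6.87, 7.05 and 6.92 in BPA 2500 nM, and 6.90 and 7.16 in E2. The libraries of BPA 2500 nM and of E2 lay below those of DMSO, and those of BPA 0.25 nM overlapped them. Its log2 change was -0.12 ± 0.05 (SE, adjusted p = 0.311) in BPA 2500 nM and -0.10 ± 0.06 (adjusted p = 0.479) in E2. EFEMP2, which encodes a fibulin needed for elastic fibre assembly, had means of 4.36 ± 0.48 FPKM in DMSO, 4.11 ± 0.18 in BPA 0.25 nM, 3.64 ± 0.28 in BPA 2500 nM and 3.55 ± 0.45 in E2, and its smallest adjusted p against DMSO was 0.245. Exons of MUS81, listed at a mean of 9.08 FPKM in DMSO, overlap EFEMP2 on the other strand.

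Neither of the tested basement membrane proteoglycans passed the test in a comparison with DMSO. HSPG2, which encodes perlecan, was listed at 1.41, 1.73 and 1.52 FPKM in DMSO, 1.43, 1.43 and 1.34 in BPA 0.25 nM, 1.0, 1.18 and 1.10 in BPA 2500 nM, and 1.01 and 1.11 in E2. The BPA 2500 nM and E2 libraries lay below all DMSO libraries. The log2 changes of -0.29 ± 0.07 (SE, adjusted p = 0.0803) and -0.31 ± 0.08 (adjusted p = 0.105) did not pass the threshold. AGRN, which encodes agrin, was listed at 11.7, 12.1 and 12.2 FPKM in DMSO, 12.6, 12.7 and 12.2 in BPA 0.25 nM, 12.4, 12.8 and 12.7 in BPA 2500 nM, and 12.1 and 10.5 in E2. Its BPA 2500 nM libraries lay above those of DMSO, with a log2 change of 0.07 ± 0.05 (adjusted p = 0.515), and the other groups overlapped DMSO.

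COL18A1, whose product is a basement membrane collagen that yields endostatin, was listed at 3.27, 3.09 and 3.12 FPKM in DMSO, 2.79, 2.88 and 2.89 in BPA 0.25 nM, 2.73, 2.72 and 2.90 in BPA 2500 nM, and 3.03 and 2.52 in E2. All treated libraries lay below those of DMSO, and no comparison passed the test (log2 change -0.14 ± 0.06, SE, adjusted p = 0.276 in BPA 2500 nM). SLC19A1, which overlaps it on the other strand, had group means of 1.83 FPKM in DMSO and 2.53 to 2.59 in the treated groups. COL4A5, an alpha chain of collagen IV, had a log2 change of -0.20 ± 0.11 (adjusted p = 0.409) in BPA 2500 nM, with overlapping libraries.

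In E2, ADAMTSL4 was the 1 member called, among 51 of all tested loci or 0.419% (20 higher and 31 lower, and 25 of 50 higher after rescaling by the median of ratios). Leaving out 1 library moved the count over all loci to between 7 (without BPA 2500 nM replicate 2) and 189 (without E2 replicate 1), and it was 2 in the fit to the compared groups alone. After ADAMTSL4, the smallest p values among members with a lower mean were those of COL6A2, HSPG2, LAMA5 and COL6A1. COL6A2 (GRCh38, chr21:46098097-46132849) was listed at 2.93, 3.14 and 3.17 FPKM in DMSO, 3.12, 2.93 and 2.96 in BPA 0.25 nM, 2.74, 2.88 and 2.92 in BPA 2500 nM, and 2.49 and 2.26 in E2. Both E2 libraries lay below all others. The log2 change was -0.27 ± 0.06 (SE, adjusted p = 0.0716). COL6A1, which lies on the same chromosome (GRCh38, chr21:45981737-46005050), was listed at 4.11, 3.85 and 3.18 FPKM in DMSO, 3.69, 3.86 and 3.43 in BPA 0.25 nM, 3.35, 3.54 and 3.68 in BPA 2500 nM, and 3.03 and 2.62 in E2. The E2 libraries were again lowest, by a small margin over the third DMSO library, and the log2 change was -0.30 ± 0.09 (adjusted p = 0.163).

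COL12A1, a fibril-associated collagen, was on the higher side in E2 at 1.10 and 1.06 FPKM. Its other libraries stood at 0.85, 1.0 and 1.05 in DMSO, 1.03, 0.87 and 0.99 in BPA 0.25 nM, and 0.91, 1.05 and 1.01 in BPA 2500 nM. The E2 values exceeded those of DMSO by a margin of the same order as the rounding, and the log2 change of 0.08 had a 95% interval from -0.10 to 0.27.

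The tested laminin chains had a log2 change below 0 in E2 against DMSO in 4 of 4 cases, beside 51.9% of all tested loci. Their median log2 change was -0.14 against -0.01 over all tested loci, and none passed the test. LAMC1, the gamma chain shared by most laminins, was listed at 34.4, 37.2 and 35.6 FPKM in DMSO, 35.0, 32.0 and 34.8 in BPA 0.25 nM, 34.5, 34.0 and 33.7 in BPA 2500 nM, and 33.7 and 34.4 in E2. Its groups overlapped. LAMA5 had means of 6.75 ± 0.29 FPKM in DMSO, 6.39 ± 0.31 in BPA 0.25 nM, 6.20 ± 0.23 in BPA 2500 nM and 5.45 ± 0.58 in E2 (log2 change in E2 -0.27 ± 0.07, SE, adjusted p = 0.11). ADRM1, which overlaps LAMA5 on the other strand, had means of 61.6 FPKM in DMSO and 63.9 in E2. LAMB1 had a log2 change of -0.14 ± 0.06 in E2 (adjusted p = 0.294), and it overlaps DLD on the other strand. LAMB2 stood at 30.2 ± 0.15 FPKM in DMSO, 30.9 ± 1.01 in BPA 0.25 nM, 31.1 ± 1.06 in BPA 2500 nM and 27.5 ± 1.73 in E2.

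None of the 3 tested enzymes that modify and cross-link collagen passed the test. PLOD1, a lysyl hydroxylase gene whose locus is joined with MFN2 in the files, was listed at 44.3, 44.1 and 46.5 FPKM in DMSO, 45.7, 46.0 and 46.5 in BPA 0.25 nM, 46.4, 45.4 and 46.5 in BPA 2500 nM, and 45.9 and 42.7 in E2. These groups overlapped. PLOD3, which overlaps ZNHIT1, and LOXL2, whose locus is joined with ENTPD4, had log2 changes between -0.07 and 0.04 in the comparisons with DMSO, and so had PLOD1.

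**Figure D4:**
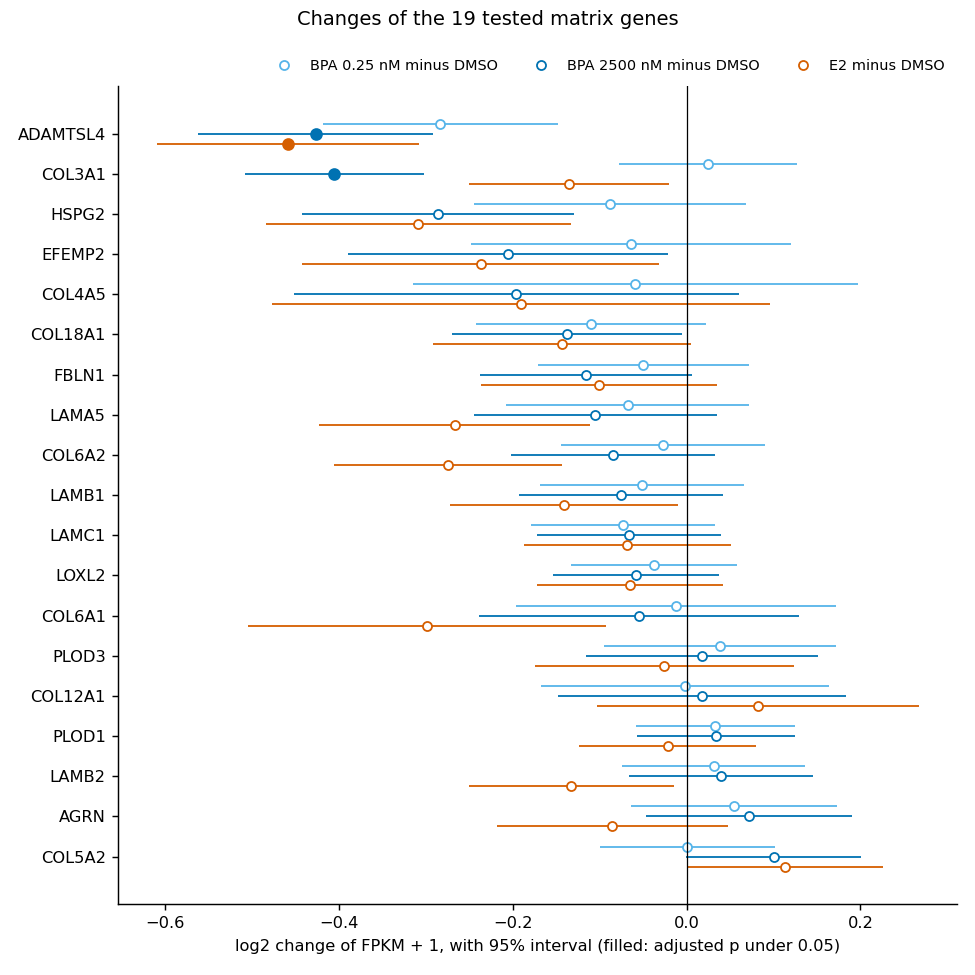
Log2 change of FPKM + 1 against DMSO for the 19 tested matrix genes in BPA 0.25 nM, BPA 2500 nM and E2, with 95% intervals; filled points have an adjusted p under 0.05 (limma). The filled points are COL3A1 in BPA 2500 nM and ADAMTSL4 in BPA 2500 nM and E2, and the 3 comparisons share the DMSO libraries.

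At 0.25 nM BPA no member was called, and 2 of all tested loci were, or 0.0164%. At an unadjusted p under 0.05, 1 of the 19 members (ADAMTSL4) passed, beside 9.11% of tested loci. A log2 change below 0 was found for 13 of 19 members, beside 49.7% of loci, and the members' median was -0.04 (-0.0671 when libraries were rescaled without mitochondrial loci). Libraries did not overlap for 2 members on the lower side (ADAMTSL4 and COL18A1), beside 8.05% of loci, and for none on the higher side, beside 9.01%.

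The members as a whole are described by counts beside all tested loci, with no test, because the list was chosen with earlier results of these data known. In BPA 2500 nM against DMSO, 13 of 19 had a log2 change below 0, beside 57.2% of all tested loci, and the median was -0.07 against -0.03. Libraries did not overlap for 9 members on the lower side and 2 on the higher side, beside 17.1% and 9.54% of loci. In E2 against DMSO, 17 of 19 were below 0, beside 51.9% of loci, and the median was -0.14 against -0.01. There 12 members were lower and 2 higher without overlap, beside 16.2% and 12.2% of loci. At an unadjusted p under 0.05, 5 members passed in BPA 2500 nM and 10 in E2, beside 17.2% and 15.4% of loci.

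In BPA 2500 nM against BPA 0.25 nM, COL3A1 was the 1 member called, and 3 members passed an unadjusted p under 0.05, beside 7.81% of loci. There 13 of 19 members had a log2 change below 0, beside 62.6% of loci, and libraries did not overlap for 4 members on the lower side and 1 on the higher side, beside 12% and 4.66%.

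No member was called in E2 against BPA 0.25 nM or in E2 against BPA 2500 nM, where 6 and 5 of all tested loci were called (0.0493% and 0.041%). These counts over all loci became 212 and 56 without E2 replicate 1 and 24 and 24 without E2 replicate 2. At an unadjusted p under 0.05, 9 and 6 members passed in these comparisons, beside 12.6% and 9.01% of loci. Against BPA 0.25 nM, 16 of 19 members were below 0 in E2, beside 54% of loci, with 10 lower and 2 higher without overlap, beside 16.9% and 10.8%. Against BPA 2500 nM, 14 were below 0, beside 46.7% of loci, with 5 lower and 2 higher without overlap, beside 10.3% and 13.4%.

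In data simulated for the comparison of BPA 2500 nM with DMSO, a simulated log2 change of 0.3 was called in 21.1% of 71 changed loci. One of 0.6 was called in 83.9% of 62 and one of 1 in 95.5% of 67. Of the 143 calls made in these simulated data, 12 were false. The simulation held 12182 loci, so that these rates are not those of the members. In the measured data the members' median SE for this comparison was 0.054, against 0.084 over all tested loci. No such rate was obtained for E2, which has 2 libraries.

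Other genes of collagen making and matrix contact were followed in 3 lists. Among genes for collagen folding, modification and secretion, 18 of 25 were tested. P4HA1, which encodes an alpha subunit of prolyl 4-hydroxylase, was the 1 called, lower in BPA 2500 nM against DMSO, beside 1.3% of all tested loci. It was listed at 24.8, 24.4 and 23.9 FPKM in DMSO, 21.5, 20.2 and 20.9 in BPA 0.25 nM, 20.4, 20.2 and 20.9 in BPA 2500 nM, and 20.7 and 21.8 in E2. All treated libraries lay below DMSO. In BPA 2500 nM it fell by 0.24 on the log2 scale (SE 0.041, adjusted p = 0.0331), and the call was lost in 8 of 11 fits without 1 library (adjusted p 0.0502 to 0.132; all but those without BPA 0.25 nM replicate 2 and without either E2 library). It was also lost with no filter (0.0806) and in the fit to the compared groups alone (0.0798). PCOLCE, which enhances procollagen processing, had a log2 change of -0.27 ± 0.06 in E2 (adjusted p = 0.0755), and PPIB, a prolyl isomerase of the endoplasmic reticulum, one of 0.12 ± 0.04 in BPA 2500 nM (adjusted p = 0.158).

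Of other collagens and matrix proteins, 11 of 50 were tested, and CCN1, a matricellular integrin ligand, was the 1 called. It was called in BPA 2500 nM against DMSO and against BPA 0.25 nM, beside 1.3% and 0.0657% of all tested loci. It was listed at 26.7, 26.8 and 27.2 FPKM in DMSO, 26.6, 25.1 and 27.5 in BPA 0.25 nM, 33.1, 35.8 and 33.6 in BPA 2500 nM, and 32.5 and 32.3 in E2. The BPA 2500 nM and E2 libraries lay above all others. In BPA 2500 nM it rose by 0.33 on the log2 scale against DMSO (SE 0.046, adjusted p = 0.0153), and the adjusted p was 0.0633 when DMSO replicate 1 was left out and 0.057 when the second BPA 2500 nM library was. In the fit to the compared groups alone it was 0.0682. In E2 its log2 change was 0.26 ± 0.05 (adjusted p = 0.0677). CCN2, of the same family, had log2 changes of 0.31 ± 0.07 (adjusted p = 0.0662) and 0.35 ± 0.08 (adjusted p = 0.0781) in BPA 2500 nM and E2, and THBS3, a thrombospondin gene, -0.31 ± 0.08 (0.088) and -0.35 ± 0.09 (0.0936).

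Of 25 matrix receptors 16 were tested and none was called by limma in any comparison. At an unadjusted p under 0.05, 1 of the 16 receptors passed in BPA 2500 nM and 1 in E2 against DMSO, beside 17.2% and 15.4% of all tested loci. The 3 with the smallest F test p were ITGA5, a subunit of the fibronectin receptor, SDC3, a syndecan, and ITGA3, a laminin receptor subunit, with adjusted F test p between 0.457 and 0.484. The medians of the receptor list were -0.06 in both BPA 2500 nM and E2 against DMSO.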

How the data were processed

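RNA of 11 libraries of IOSE80 cells was analysed. The authors deposited 1 FPKM value per locus and library, rounded to 2 decimals. The tools named, per the submitters' processing notes, are edgeR, HISAT, StringTie and UMI-tools, with no version or order. These notes name hg19, but 74.8% of 14123 loci shared with GENCODE 29 have its GRCh38 start and end, and GRCh38 is used. The sources used here do not state strandedness. Low FPKM values could not be resolved into whole reads. At the best of many step sizes tried per library, 25.9% to 32.6% lay near a whole step. By chance 20% do so for 1 fixed step, and the best of many lies higher. Depth is therefore unknown, and precision rests on the spread between libraries (median SE of a member's log2 change 0.054 for BPA 2500 nM against DMSO).

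A member was matched to the locus holding its name, and 2 members (PLOD1, LOXL2) lie in loci joined with another coding gene. Loci with at least 1 FPKM in at least 2 libraries were tested on log2(FPKM + 1), which understates changes of low genes. The fit was limma 3.58.1 in R 4.3.3, with 1 mean per group over all 11 libraries, trend and robust settings (statmod 1.5.0), two-sided and Benjamini-Hochberg adjusted over 12182 loci per comparison. It was checked on simulated data. Motifs were searched in RefSeq promoters with Python 3.11.15 and pandas 2.3.3.

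The members, the lists and the tests were chosen with earlier results of these data known. Values in every library are given for each called member, for the 2 members with the smallest p in each direction against DMSO and for the highest of each class. Of the other lists, each called gene and the 3 with the smallest F test p are named. HSPG2, LAMA5 and FN1 were added after their values were seen. Alternatives were other pseudocounts, filters, scalings, variance settings, sample sets, the replicate block, summed loci and each library left out.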

Additional observations from a re-analysis of the deposited data

Results flagged for a closer look

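COL3A1 differed between the BPA doses: the log2 change of BPA 2500 nM against BPA 0.25 nM was -0.43 (23.4 against 31.8 FPKM, n = 3 each, limma adjusted p = 0.0267), with the 3 libraries at the higher dose below the 3 at the lower dose. CCN1 differed between the doses in the other direction, with a log2 change of 0.361 (34.2 against 26.4 FPKM, limma adjusted p = 0.0413). Its call was lost in each of 11 fits without 1 library, whichever was left out (adjusted p 0.0753 to 0.151). No group was large enough for a search for single libraries far from the rest.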

How the results depend on the processing

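No called result reversed in 20 alternatives. The call of COL3A1 in BPA 2500 nM against DMSO stood in all 20; that of ADAMTSL4 was lost in 8 of 19 in BPA 2500 nM and in 12 of 19 in E2, among them the fit to the 2 compared groups alone (adjusted p = 0.0682 and 0.286), where the spread rests on fewer libraries. In comparisons with DMSO, the members called were 1 (BPA 2500 nM) and 0 (E2) with no filter, at a mean of at least 5 FPKM (which does not test ADAMTSL4) and in the fit to the compared groups alone; the last also gave 0 for BPA 2500 nM against BPA 0.25 nM, and has no F test. The F test called 1 member with no filter and 1 at a mean of at least 5. With the replicate block the counts were 1 for BPA 2500 nM and 0 for E2 against DMSO, 1 member by F and 6 of all loci by F. Over all loci it called 38 (BPA 2500 nM) and 5 (E2) against DMSO, and in BPA 2500 nM against DMSO it also ended the calls of P4HA1 (0.0857) and CCN1 (0.0572). Libraries of the same number did not deviate together (correlations -0.117 to 0.164 over 15 pairs, 1 over 0.1; 2 libraries correlated best with their own number), so the numbers were not taken as pairs. The members' median log2 change moved with no filter, which adds genes near 0, to -0.00695 (BPA 0.25 nM), -0.00697 (BPA 2500 nM) and -0.0247 (E2) against DMSO and -0.0178 (E2 against BPA 0.25 nM). At a mean of at least 5 FPKM it was 0.00109 (BPA 0.25 nM) and -0.0851 (E2) against DMSO and -0.0641 (E2 against BPA 0.25 nM); rescaled without mitochondrial loci it was -0.0671 for BPA 0.25 nM (cause not tested). Without 1 library, members called ranged from 1 to 2 (BPA 2500 nM) and 0 to 1 (E2) against DMSO, 0 to 1 (BPA 2500 nM against BPA 0.25 nM) and 0 to 2 by F, with 12 to 149 loci by F. The medians ranged from -0.178 to -0.0913 (E2 against DMSO), -0.131 to -0.0742 (E2 against BPA 0.25 nM) and -0.0977 to -0.0162 (E2 against BPA 2500 nM).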

Other observations

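DAG1, a laminin receptor gene singled out after its values were seen, was listed at 41.1 FPKM in E2 replicate 2, at 9.58 in E2 replicate 1 and at 10.2 to 13.6 in the other 9 libraries.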
